A study of Homo sapiens with 8 samples.

Results

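Intermediate filament proteins form the ropelike part of the cytoskeleton, and the nuclear lamins are the members of the same family that line the inner nuclear membrane. The 9 genes described here encode the neurofilament light, medium and heavy chains (NEFL, NEFM, NEFH), the neuronal filament protein alpha-internexin (INA), nestin (NES), vimentin (VIM), the A-type lamins (LMNA) and the B-type lamins (LMNB1, LMNB2). They were taken by name, and their YTHDF2 sites are the distinct positions of the deposited list that lie inside each gene's GRCh38 span on its strand. By that rule 32 of the list's 37613 positions belonged to 7 of the 9 genes, and NEFH and LMNA had none. Among all 19955 protein-coding genes of the gene table, 7771 held a position, or 38.9%.

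YTHDF2 is a cytoplasmic reader of N6-methyladenosine (m6A), a methyl mark on adenosines of mRNA, and brings decay enzymes to the RNA it binds. The METTL3-METTL14 enzyme writes most of this mark, preferentially at an adenosine in the DRACH context, meaning a base other than C, then A or G, then the A itself, then C, then a base other than G. Neurofilament chains, alpha-internexin and nestin are best known from neurons and their progenitors, vimentin from mesenchymal cells, and the lamins from the nuclei of most cells. HEK293T is a human embryonic kidney line, so a site says that a transcript was recovered with YTHDF2, and its level was not measured here.

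YTHDF2 was crosslinked to RNA with ultraviolet light and immunoprecipitated (iCLIP2) from wild-type HEK293T cells, in 4 libraries after 12 h of 20 µM STM2457, an inhibitor of METTL3, and in 4 after 12 h of solvent. Both groups held 0.2% DMSO, and the labels do not say whether replicates were separate cultures. The deposited list is 1 table for the whole series, with 1 score per row and no value per library. STM2457 and DMSO were therefore not compared, and no replicate spread, read depth or test stands behind any value below.

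Which nucleotide the list names could be read for a small set of positions, those whose surroundings lie in the RefSeq start-site windows (250 nt before to 50 nt after a gene's start, GRCh38.p14). All 142 such positions, 0.378% of the list, fell on an A, and the next base was C in all 142. In these windows as a whole 21.2% of bases were A and 4.43% were A followed by C. DRACH surrounded 113 of the 142 positions (79.6%), against 34.7% of all AC steps in the windows. Most of each window lies before the gene's start, so the shares for whole windows include bases that may not be in a transcript. The positions in these windows are thus adenosines in AC steps, and no source used here says if a listed position is the crosslinked base or a nearby adenosine to which the binding was assigned. The 5-base string GGACT lay within 14 nt of 14.8% of the 142 positions on the site's strand, and of 16.9% counting either strand. Its share in other stretches of the windows was not counted, so these values have no background beside them.

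Among the 32 sites in question, 1 could be read this way, in LMNB1, and it is shown because it is the only site here whose RNA context is visible. It lies 23 nt into the transcript from the nearer RefSeq start of this gene, on the plus strand, at chr5:126777144-126777172 for the stretch printed. Capitals mark the 5 bases with the listed adenosine in the middle, which match DRACH.
LMNB1 site: cagcctgagaggAAACAaagtgctgcgag
The stretch holds GGACT on neither strand. Its score was 5.12, below the list's median of 8.67.

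**Figure D1:**
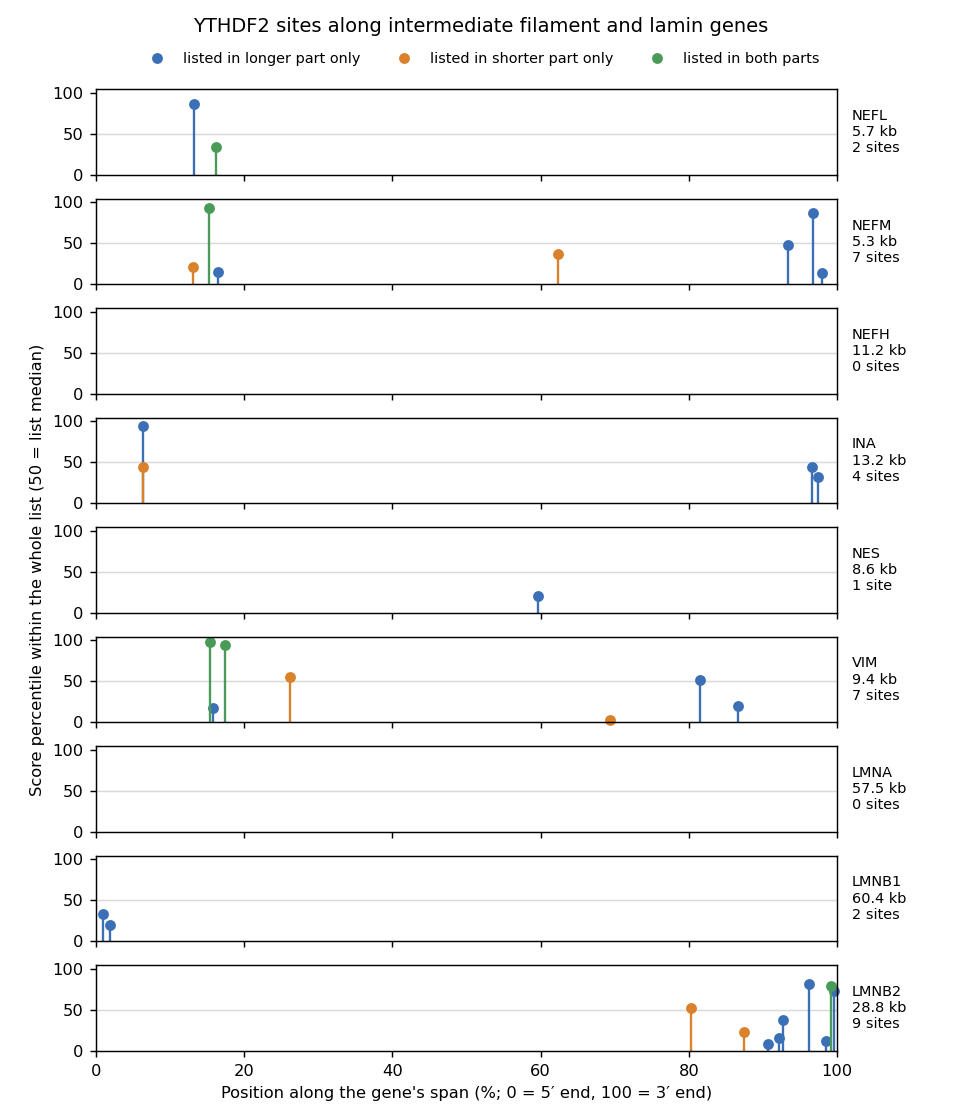
Each panel is 1 gene, with position along the gene's span in percent (0 at the 5′ end) on the horizontal axis and each site's score percentile within the whole list on the vertical axis. Colours give the part of the list that holds the site. The tallest stems of NEFL, NEFM, INA and VIM stand at 6.34 to 15.4% of the span, and all 9 LMNB2 sites lie beyond 80.3%.

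The neurofilament genes differed from each other. NEFM, the medium chain, carried 7 sites in a span of 5.33 kb on chromosome 8, or 1.31 per kb of genomic span, introns included. That density was above that of 95.1% of genes with a site, whereas 24.3% of them had at least as many sites. The sites of NEFM formed a group near each end. The 5′ group was made of 24914455, 24914572 and 24914638 (plus strand), at 695 to 878 nt from the gene's start, with scores of 3.16, 60.4 and 2.12. The middle one of these was the highest in the gene, at the 92.9 percentile of the list, that is with a score above 92.9% of positions. The 3′ group was made of 24918738, 24918921 and 24918984, at 110 to 356 nt before the gene's end, with scores of 8.18, 37.2 and 1.94. In each group 1 strong site stood beside weaker ones. The remaining site, at 24917083, scored 5.78 and lay 62.3% of the way along the gene.

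NEFL, the light chain and NEFM's neighbour on the same chromosome, carried 2 sites on the minus strand. They lay at 24955863 (score 37.2) and 24955701 (score 5.32), at 750 and 912 nt from the gene's start. Its 5.66 kb span thus had a 5′ group at nearly the same distance as that of NEFM, and no site farther on, the second lying 4747 nt from the gene's end. NEFH, the heavy chain whose long tail carries many phosphorylation sites, had 0 positions on either strand of its 11.2 kb span. The 3 other protein-coding genes nearest to it in span, CTSD, MMP14 and TINAGL1, also had 0.

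INA, whose product assembles with the neurofilament chains, had 4 sites on chromosome 10 in 13.2 kb, placed like those of NEFM in a group near each end. At the 5′ end 103277969 and 103277974 were 5 nt apart and 832 and 837 nt from the gene's start, with scores of 7.23 and 71.8. The second was at the 94.6 percentile. At the 3′ end 103289894 and 103290014 scored 7.36 and 4.99 and lay 453 and 333 nt before the gene's end. No site fell in the 11920 nt of genomic span between the groups.

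VIM, the filament protein of mesenchymal cells, had 7 sites in 9.35 kb, or 0.748 per kb, and the highest score of all the genes here. That site, at 17229676 on chromosome 10 (plus strand), scored 139 and stood at the 98.3 percentile. With 17229715 (score 2.50) and 17229865 (score 67.5) it formed a group at 1436 to 1625 nt from the gene's start. The span of VIM-AS1, a noncoding gene on the opposite strand, covers these 3 positions, and the list gives all 3 on the strand of VIM. Farther on, 17230688 scored 10.4 and 17234724 scored 0.403, the lowest value among the 32 sites. The 2 sites nearest the 3′ end, 17235866 and 17236341, scored 9.24 and 3.01. Unlike in NEFM, INA and LMNB2, VIM had no site within 1000 nt of its 3′ end, though these 2 lay 1728 and 1253 nt from it.

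NES, the filament protein of neural progenitors, had 1 site, at 156672255 on chromosome 1 (minus strand), with a score of 2.99. It lay 59.6% of the way along the 8.65 kb gene, and the nearest other listed position on that strand was 51021 nt away. Having 1 site placed NES with 1724 of the 7771 genes.

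The lamin genes spanned the whole range of the set. LMNB2, a B-type lamin that stays farnesylated and membrane-bound, had the most sites, 9 in 28.8 kb on chromosome 19 (minus strand). They lay between 2428299 and 2433830, all beyond 80.3% of the gene's length, and 7 of them in its last 2697 nt. Nearest the end stood 2428299, 2428412 and 2428596, at 134, 247 and 431 nt from it, with scores of 19.4, 25.5 and 1.71. The highest score, 27.2, was at 2429250. A second group of 3, from 2430280 to 2430862, scored 5.86, 2.19 and 1.18, and the 2 sites farthest from the end, 2431796 and 2433830, scored 3.47 and 9.39. The 3 highest LMNB2 scores thus lay within 1085 nt of its end, whereas the highest score of each of NEFL, NEFM, INA and VIM lay 750 to 1436 nt from the start. These places depend on the score used where a position has 2, as described further on. With the lower of 2 scores the highest NEFM score is 37.2, at 173 nt from its end, and among the scores of the list's shorter part the highest LMNB2 score is 9.39, at 5665 nt from its end. The 3 genes nearest to it in span had 0 (NPC1L1), 0 (PLSCR5) and 8 (ZNF724) sites.

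LMNB1, the other B-type lamin, had 2 sites in 60.4 kb, both near its start. The site shown above, 126777158 on chromosome 5, lies 536 nt from the gene's outermost 5′ end and 126777758 at 1136 nt, with scores of 5.12 and 2.90. The second lay 59263 nt from the gene's end with no site after it. The density of 0.0331 per kb of genomic span, introns included, was above that of 20.5% of genes with a site. LMNA, which encodes lamins A and C, had 0 positions on either strand of 57.5 kb. Of the 3 genes nearest to LMNA in span, ADAP1 and PCBD2 had 0 sites and BRI3BP had 7. The list thus placed 9, 2 and 0 sites in the 3 lamin genes, and since expression was not measured, fewer transcripts and less binding per transcript cannot be told apart.

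**Figure D2:**
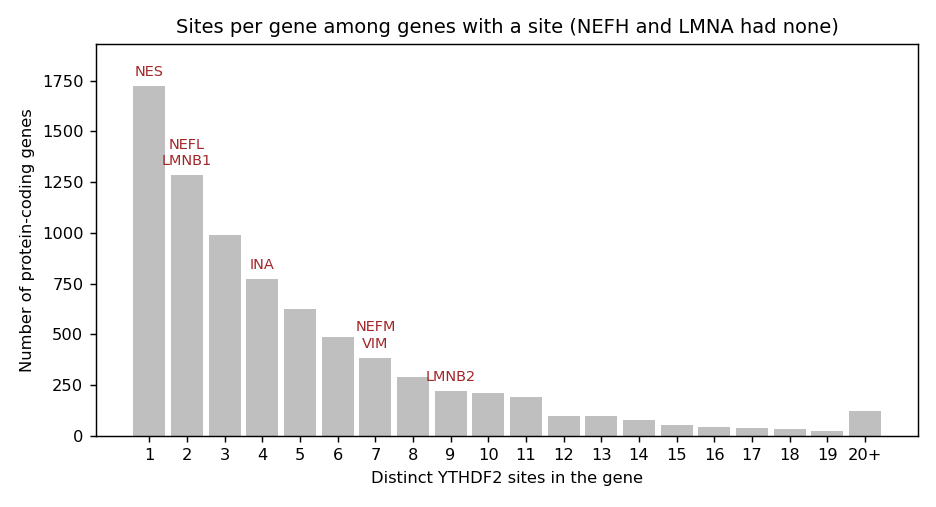
Bars count the protein-coding genes with each number of distinct sites (horizontal axis; the last bar joins genes with 20 or more), and names mark the genes described here. NES, NEFL and LMNB1 sit at 1 or 2 sites, INA at 4, and NEFM, VIM and LMNB2 at 7 to 9, above the median of 3.

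Set against all genes with a site, whose median was 3 and upper quartile 6, the 7 genes with a site had a median of 4. NEFM, VIM and LMNB2 had 7 or more sites, as did 24.3% of genes with a site. By score the 32 sites had a median percentile of 37.0, and 12 of them were at or above the list's median. The 95% interval of that median percentile from binomial order statistics was 20.5 to 55.8. This interval treats sites as independent, which sites that share a transcript are not, and it measures no replicate spread. Ranked within the list's shorter part, the 12 sites found there had a median percentile of 56.1. Within the longer part, the 25 sites found there had 32.2. The highest 25% of the list's scores held 8 of the 32 (25%), in VIM, NEFM and LMNB2 with 2 each and in NEFL and INA with 1 each. A site with such a score was found in 5 of the 7 genes, against 51.5% of all genes with a site.

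Sites in the first 1 kb of the gene were present in NEFL, NEFM, INA and LMNB1, and absent from NES, VIM and LMNB2. These 4 of 7 genes compare with 14.4% of all genes with a site, and with 5 of 16 genes with a site (31.2%) in the list of lamina partners and lamin processing described further on. The count turns on the width of the window. All 8 such sites lay 536 to 912 nt from the outermost 5′ end of the gene's span, from which the windows are counted. A window of 500 nt, chosen after seeing the data, thus holds 0 of the 7 genes (9.43% of all genes with a site). One of 2000 nt holds 5, with VIM added (19.9%). The start used also matters, since the LMNB1 site at 536 nt lies only 23 nt from the nearer RefSeq start of that gene. In the last 1 kb 3 of 7 had one (NEFM, INA and LMNB2), against 37.8%. Short genes hold more of their length in such windows. Among genes spanning 5 to 15 kb, a limit chosen after seeing the data, 7 of 21 sites of NEFL, NEFM, INA, NES and VIM (33.3%) lay in the first 1 kb, against 7.85% of 6614 sites in 1554 genes with a site. For the last 1 kb the shares were 23.8% and 26.9%. These are descriptions, since the sites of a gene share its transcript and 3 related genes supply all 7. Exon, coding and untranslated boundaries were not used here.

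The list's chromosomes recur in its row order, which makes 4 runs per strand. Grouping these into a shorter part of 8935 and a longer part of 34243 rows was a choice made here. No label says what a run or a part stands for. The smaller runs hold 5031 rows of the list (11.7%) and 3 of the 37 rows of the genes described here. These 3 are 1 row each at NEFL 24955701, VIM 17229715 and LMNB1 126777158. No setting left the smaller runs out. Of the 32 sites, 20 were in the longer part only, 7 in the shorter part only and 5 in both, or 62.5%, 21.9% and 15.6%. Over the whole list these shares were 76.2%, 8.96% and 14.8%. The 7 were 2 each in NEFM, VIM and LMNB2 and 1 in INA, which lies 5 nt from a site in the longer part only. The scores of these 2 INA sites, 7.23 and 71.8, thus come from different parts of the list. A site in the shorter part only occurred in 4 of the 7 genes, against 32.2% of all genes with a site, and one in both parts also in 4 of 7, against 42.8%. LMNB1 and NES had no site in the shorter part.

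The 5 sites in both parts carry a score in each. At 17229865 in VIM the shorter part gave 67.5 and the longer 0.508, a 133-fold difference, so the rank of this site ran from the 98.1 percentile of the shorter part to the 3.36 percentile of the longer. Of the 5565 positions with 2 scores, 115 differed by at least that factor, 11 of them with the higher score in the shorter part as here. The neighbouring VIM site 17229676 was high in both parts, with 60.4 in the shorter and 139 in the longer. NEFM 24914572 had 9.88 and 60.4 and LMNB2 2428412 had 3.52 and 25.5, higher in the longer part by factors of 6.12 and 7.23. NEFL 24955701 had 5.32 in the shorter and 2.44 in the longer. Over all positions with 2 scores the higher exceeded the lower by a median factor of 3.19 (quartiles 1.72 and 7.86), and the longer part gave the higher score in 70.0%.

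**Figure D3:**
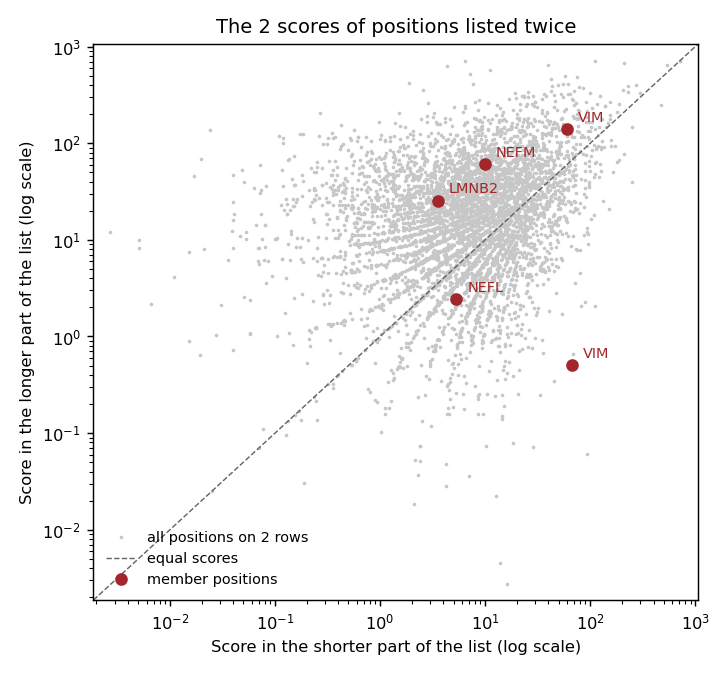
Each grey point is a position with a score in the shorter part (horizontal axis, log scale) and in the longer part (vertical axis, log scale), and the dashed line marks equal scores. Red points are the 5 positions of the genes described here, and the lower VIM point, at 67.5 and 0.508, lies far below the line.

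Of the other intermediate filament genes, a list of 63 was counted, which may not be the whole family. None of the 63 held a position, neither the 55 keratin genes, among them KRT8 and KRT18 of simple epithelia, nor the neuronal filament gene PRPH, desmin (DES) or the glial GFAP. In contrast, 16 of 21 genes that encode partners of the lamina or process lamins had a site (76.2%), with 105 sites in all and a median of 4 over the 21. TOR1AIP2, which encodes an activator of the torsin ATPases, had 18 sites. ICMT, which methylates the farnesylated end of lamins, and LEMD3, an inner nuclear membrane protein, had 13 each, and TMPO, which encodes the lamina-associated LAP2 proteins, had 12. ZMPSTE24, the protease that matures prelamin A, had 6 sites, and LMNA had 0.

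Of 24 genes for filament linkers, kinases and turnover, 16 had a site (66.7%), with 80 sites and a median of 3. DSP, desmoplakin, which anchors filaments at cell junctions, had 14. YWHAG and YWHAH, of the 14-3-3 family that binds phosphorylated filament proteins, had 8 each. As for marker genes, the stem cell factor SOX2 had 3 sites and the epithelial EPCAM had 0. These shares were not matched for gene expression.

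**Figure D4:**
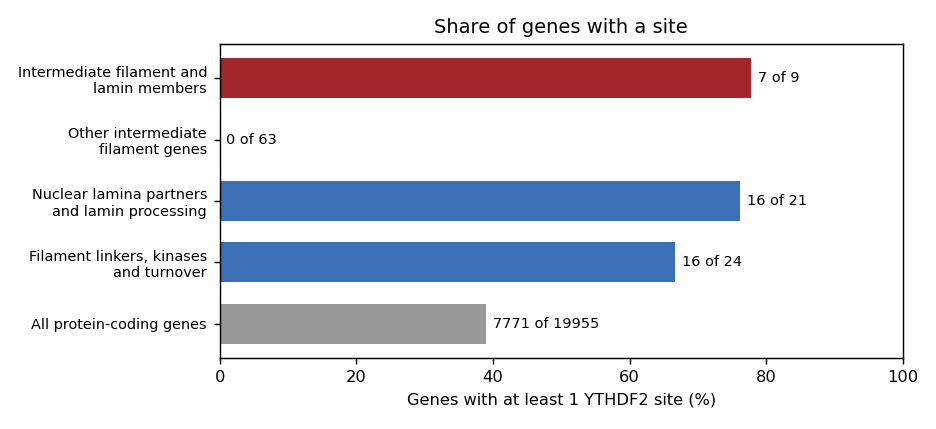
Bars give the percentage of genes with at least 1 site in the set described here, in 3 comparison lists and among all protein-coding genes, with counts beside them. The set (7 of 9) and the lamina list (16 of 21) lie above the 38.9% of all genes, and the bar of the other intermediate filament genes is at 0 of 63.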

How the data were processed

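The authors deposited 1 list for the series of 8 libraries, with 6 columns and no header. Each of its 43178 rows gives a position of 1 nt, a strand and a score. These scores, all above 0, were deposited by the authors with no statement of their scale or of how they were made. Tools named in the submitters' processing notes are STAR 2.7.3a, bedtools 2.27.1, UMI-tools 1.0.0 and FastQC 0.11.8, with the build GRCh38.p12. No source used here says how sites were called and scored, or if and how they were joined over libraries, and depth per library is unknown.

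Rows that repeat a position on a strand were joined (37613 positions, higher score kept). Gene spans came from RefSeq on GRCh38.p14, whose patches leave main chromosomes as they are. Strands came from RefSeq's start-site windows, or for genes missing there (NEFL, NEFM, NEFH) from the majority of positions in the gene alone. Where both existed they were equal in 99.9% of 6198 genes. A position in overlapping genes of 1 strand counts for each, and readthrough genes were left out. On simulated positions, 100% of 1785 genes got the known count. These were genes with a strand from RefSeq's windows and no other gene at their positions. The majority rule for strands was not tested in this way. Groups of sites within a gene have gaps of at most 500 nt.

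Genes and lists were chosen with earlier results of these data known. All 9 genes are named, and from each list the 4 genes with the most sites, ties by alphabet. A gene that this rule selects is not reported here. ZMPSTE24, DES, GFAP, KRT8, KRT18 and PRPH were named after their values were seen. Computation used Python 3.11.15 and pandas 2.3.3. Alternatives were a score filter, each part of the list alone, merging of close sites, overlapping genes, strand and the end window.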

Additional observations from a re-analysis of the deposited data

How the results depend on the processing

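The score filters and the shorter part of the list changed the counts most, which is built in, since each keeps only a part of the list. The shorter part holds 8935 of the 43178 rows. The 32 sites became 12 at or above the list's median score, 8 among its highest 25% of scores and 12 in the shorter part alone, and the median of 2 sites over the 9 genes became 1 in each of these. The 12 sites in the shorter part had a median percentile of 56.1 within that part, and the 25 in the longer part 32.2 within theirs. All 32 had 37.0 over the list, so these values differ both in the sites and in the ranking. The 7 genes with a site became 5 under each of these settings, when NES and LMNB1 dropped out. Merging sites within 50 nt left 30, and the longer part alone 25, both in 7 genes. Leaving out overlapping genes or counting either strand left 32. With a window of 2000 nt at the 3′ end VIM went from 0 to 2 sites and LMNB2 from 3 to 4, so VIM no longer differed from NEFM, INA and LMNB2 in lacking a site there, and a window of 500 nt lost none of the sites counted in the last 1 kb. At the 5′ end, by contrast, a window of 500 nt from the outermost end of the span left 0 of the 4 genes with a site in the first 1 kb. One of 2000 nt gave 5, and both windows were chosen after seeing the data. Counted from the nearer RefSeq start, the first LMNB1 site would fall inside the window of 500 nt. Per kb between the outermost sites instead of per kb of span, densities ran from 0.332 in INA to 12.3 in NEFL, since 2 close sites give a short distance. No paired analysis was possible because the list carries no value per library. Without read counts, no site's precision is known.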
